A study of Homo sapiens with 4 samples.

Results

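YAP/TAZ-TEAD components and targets are described here as 10 genes of the Hippo pathway among the 26485 gene names of the deposited tables. They were chosen by name, with earlier results of these data known. YAP1, WWTR1, TEAD1, TEAD4 and LATS2 encode parts of the pathway, and CYR61, CTGF, ANKRD1, AMOTL2 and AXL are commonly read as targets of YAP. All 10 were found under these symbols; CYR61 and CTGF are older symbols of CCN1 and CCN2. SW1736 and 8505C are established human cell lines derived from anaplastic thyroid cancer (ATC). Their mRNA was sequenced without drug (SW1736 wt and 8505C wt) and after 6 months of selection with paclitaxel, a taxane that stabilizes microtubules, from 1 nM up to 1.5 µM (SW1736-PTX and 8505C-PTX). The PTX cells were kept in 1.5 µM paclitaxel, so stable resistance and presence of the drug cannot be told apart. All groups were grown in RPMI-1640 medium, 1 library represents each group, and whether the PTX cells are clones is not given in the sources used here.

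The Hippo pathway is a kinase cascade that limits tissue growth. The kinases MST1 and MST2 activate LATS1 and LATS2, which phosphorylate the coactivators YAP (from YAP1) and TAZ (from WWTR1) and keep them out of the nucleus. When the cascade is low, as in spread cells on a stiff matrix, YAP and TAZ enter the nucleus, bind the TEAD factors, which have the DNA-binding domain that YAP and TAZ lack, and raise genes of matrix, cytoskeleton and growth signalling. Since this control acts largely on protein, mRNA levels of the components do not measure pathway activity.

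The promoter sequences are shown first because the targets are read through TEAD binding. The core TEAD motif GGAATG was searched on both strands (CATTCC on the other) in windows from 250 bases before to 50 bases after each start site, taken from RefSeq (GRCh38.p14). Of the 10 genes, 7 matched a window, and CYR61, TEAD1 and TEAD4 did not. The motif was in at least 1 window of 6 of these 7 genes, beside 16.7% of all 27305 genes with a window (14.0% of all 35116 windows). It was in 36.4% of 11 other genes of a YAP/TAZ target signature and in 22.2% of 18 regulators of the cascade. These shares are not like for like, since the 10 genes include targets chosen as known YAP targets. Genes with more windows also had more room for a match, and WWTR1, AMOTL2 and AXL had 2 windows each. The window of CTGF held 3 motifs, as did 0.128% of all windows with 3 or more, and that of ANKRD1 held 2, as did 1.37% with 2 or more. The 250 bases before the start sites of these genes are given 5′ to 3′ on the strand of the gene, both minus, with the motif in capitals (chr6:131951373-131951622 and chr10:90921088-90921337).
CTGF: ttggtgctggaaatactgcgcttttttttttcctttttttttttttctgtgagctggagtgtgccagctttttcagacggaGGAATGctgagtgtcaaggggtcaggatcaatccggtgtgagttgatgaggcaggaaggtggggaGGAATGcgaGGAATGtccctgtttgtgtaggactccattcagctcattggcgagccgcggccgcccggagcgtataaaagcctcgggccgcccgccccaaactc
ANKRD1: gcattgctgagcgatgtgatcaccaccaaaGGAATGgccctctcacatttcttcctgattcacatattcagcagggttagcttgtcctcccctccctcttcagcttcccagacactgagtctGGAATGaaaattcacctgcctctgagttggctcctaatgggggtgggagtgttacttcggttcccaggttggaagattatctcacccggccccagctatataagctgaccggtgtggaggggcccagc

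Each of the other matches is shown with 10 bases on either side, to allow a comparison of what flanks the motif. They lie at chr11:102110275-102110300 (plus strand, YAP1), chr13:21061562-21061587 (minus, LATS2), chr3:134374501-134374526 (minus, AMOTL2) and chr19:41226533-41226558 (plus, AXL).
YAP1: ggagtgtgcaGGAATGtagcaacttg
LATS2: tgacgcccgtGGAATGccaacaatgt
AMOTL2: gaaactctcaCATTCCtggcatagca
AXL: gactttgcacCATTCCactccctccg

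The 3 motifs of CTGF began 169, 104 and 95 bases before its start site and those of ANKRD1 220 and 128 bases before, all on the strand of the gene. In AMOTL2 and AXL the motif was on the other strand of the second of 2 start sites, and in LATS2 it began at base 10 after the start. WWTR1 had no match in its 2 windows. A match gives letters only, not binding.

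**Figure D1:**
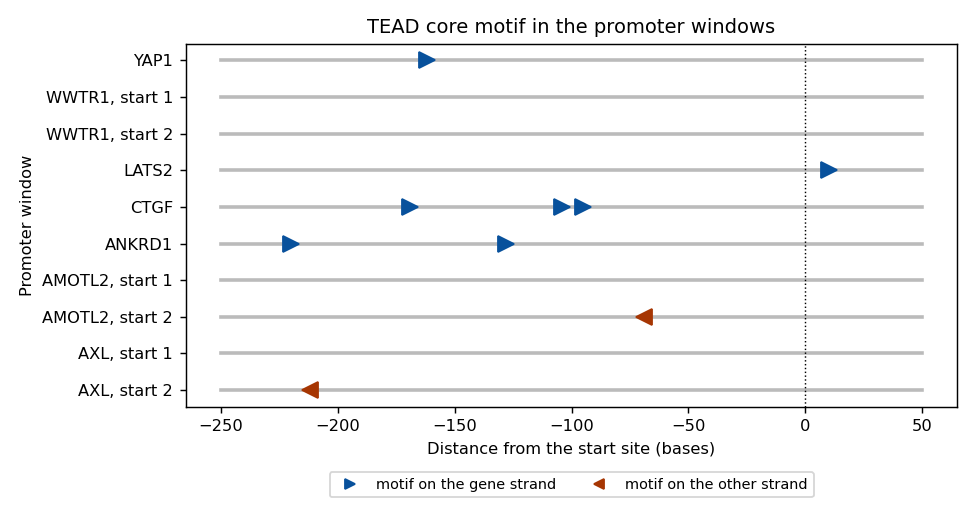
Position of the TEAD core motif in the promoter windows of the 7 genes with a window (x axis, bases from the start site, dotted line at 0; y axis, 1 line per start site). Arrowheads point right for the strand of the gene and left for the other strand, and CTGF holds the most motifs, 3.

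FPKM is the number of aligned fragments scaled to gene length and library depth. The change of a gene is log2((PTX + 0.1)/(wt + 0.1)) of its FPKM, which understates the change of low genes, and a gene was called when either library of a comparison had more than 0.5 FPKM and the change was beyond 1.5 in either direction. The libraries held between 43.5 and 57.9 M reads, estimated from the ratio of coverage to FPKM. The standard error (SE) given with a change is that of counting these reads over the transcript's length. It covers counting error only, since 1 library per condition leaves the spread between cultures unmeasured, and no test was made. In RNA from whole cultures, fewer expressing cells and less RNA per cell cannot be told apart.

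Before the results, 1 library needs a remark. Across 14692 expressed genes, Pearson's r of the library labelled SW1736-PTX was 0.767 with SW1736 wt, 0.873 with 8505C wt and 0.933 with 8505C-PTX (genes are not independent replicates). Thyroid transcription factors also set SW1736 wt apart. PAX8 stood at 38.2 FPKM in SW1736 wt and between 0.123 and 0.206 in the other 3 libraries, FOXE1 was at 26.6 FPKM against 0.0443 to 0.511, and NKX2-1 was listed at 0 in SW1736 wt and between 30.5 and 39.0 FPKM elsewhere. TSHR and SLC5A5, defining markers of thyroid follicular cells, were listed at 0 in all 4 libraries, and thyroglobulin (TG) was at or near 0. Of 4 markers of other cell types, PTPRC, PECAM1 and VWF stayed below 0.5 FPKM, and CD68 ranged from 5.84 FPKM in SW1736 wt to 43.0 in 8505C-PTX, with 23.6 in SW1736-PTX and 21.7 in 8505C wt. The part of these differences in the results was not tested, and the results of SW1736-PTX are therefore also given against 8505C wt. Whether the cells labelled SW1736-PTX derive from SW1736 was not tested either. Calls shared by both lines below may therefore not stand for separate lines.

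The 10 genes were all above 0.5 FPKM in all 4 libraries. In each line, ANKRD1 was the 1 gene called, and it was up-regulated in both, while the other 9 stayed within 1.5 on the log2 scale. Calls over all genes compared were 15.7% up and 10.2% down in SW1736 (14202 genes) and 15% up and 5.89% down in 8505C (13794 genes). The 1 call among 10 genes thus stood beside 25.9% and 20.9% of all genes called in either direction. The median change of the 10 genes was 0.25 in SW1736 and -0.49 in 8505C, beside 0.01 and 0.11 over all genes compared. Disregarding sign, the median change was 0.54 and 0.60, against 0.78 and 0.68 for all genes compared.

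**Figure D2:**
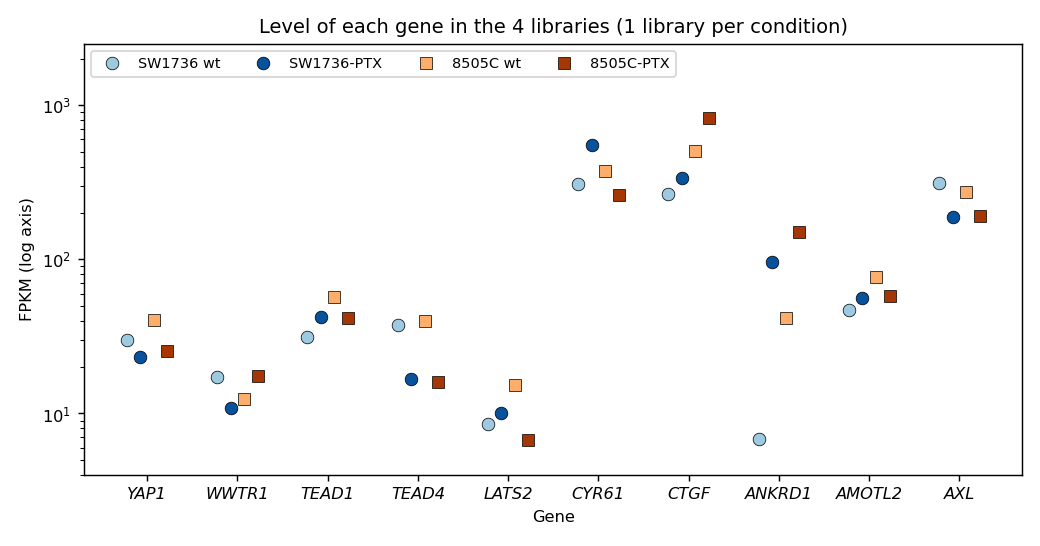
FPKM of the 10 genes (x axis) on a log axis in the 4 libraries, 1 point per library (circles, SW1736; squares, 8505C; light, wt; dark, PTX). ANKRD1 spans 6.86 to 152 FPKM, whereas each of the other genes spans at most 3.10-fold.

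Of the coactivators, YAP1 (chr11:102110461-102233423, plus strand) was at 29.9 (SW1736) and 40.4 FPKM (8505C) in the wt libraries and at 23.2 and 25.5 FPKM in the PTX libraries. Both PTX libraries were thus below both wt libraries. The share of all genes whose PTX and wt libraries separate in this way was not computed, here or for the genes below. The log2 fold change of YAP1 was -0.36 (counting SE 0.02) in SW1736 and -0.66 (0.02) in 8505C, not called in either. It was -0.80 for SW1736-PTX against 8505C wt.

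WWTR1 (chr3:149517235-149703273, minus strand), whose protein TAZ is the paralogue of YAP, was at 17.1 (SW1736) and 12.4 FPKM (8505C) in the wt libraries and at 10.8 and 17.5 FPKM in the PTX libraries. It was lowest in SW1736-PTX and highest in 8505C-PTX. The change was -0.66 (counting SE 0.03) in SW1736 and 0.49 (0.03) in 8505C. Against 8505C wt, the change in SW1736-PTX was -0.20. YAP1 exceeded WWTR1 in each library on the FPKM scale, by 1.74-fold (SW1736) and 3.26-fold (8505C) in the wt libraries and by 2.14-fold and 1.46-fold in the PTX libraries. The ratio was thus higher in the PTX library of SW1736 and lower in that of 8505C. WWTR1-AS1, annotated on the other strand within WWTR1, was at most at 0.243 FPKM, and whether reads were assigned by strand is not given in the sources used here.

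TEAD1 (chr11:12674422-12944737, plus strand), the broadly expressed TEAD factor, was at 31.6 (SW1736) and 57.3 FPKM (8505C) in the wt libraries and at 42.3 and 41.8 FPKM in the PTX libraries. The wt libraries were the lowest and the highest, and the PTX libraries differed by -0.02 on the log2 scale (8505C-PTX against SW1736-PTX, counting SE 0.01). The changes were 0.42 in SW1736 and -0.45 in 8505C, and SW1736-PTX was at -0.44 against 8505C wt.

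TEAD4 (chr12:2959312-3040676, plus strand), another TEAD factor, was at 37.3 (SW1736) and 39.6 FPKM (8505C) in the wt libraries and at 16.6 and 15.9 FPKM in the PTX libraries. The wt pair and the PTX pair did not overlap, a separation that was not counted over all genes. Within each pair the values were within 1.06-fold. The change was -1.16 (counting SE 0.04) in SW1736 and -1.31 (0.05) in 8505C, below the limit for a call but larger than in 65.2% and 74.5% of the genes compared. With 8505C wt as the reference, SW1736-PTX changed by -1.25.

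Of the TEAD genes outside the chosen 10, TEAD2 was at 28.5, 14.3, 12.0 and 17.4 FPKM in SW1736 wt, SW1736-PTX, 8505C wt and 8505C-PTX, and TEAD3 was at 13.4, 8.51, 12.3 and 7.56. Neither was called. The summed FPKM of the 4 TEAD genes was 111 in SW1736 wt and 121 in 8505C wt, and 81.7 in SW1736-PTX and 82.6 in 8505C-PTX. Both PTX libraries were lower. TEAD4 made up 33.7% and 32.6% of the sum in the wt libraries and 20.3% and 19.3% in the PTX libraries. The share of TEAD1 was 28.5% in SW1736 wt and between 47.2% and 51.8% in the other libraries.

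**Figure D3:**
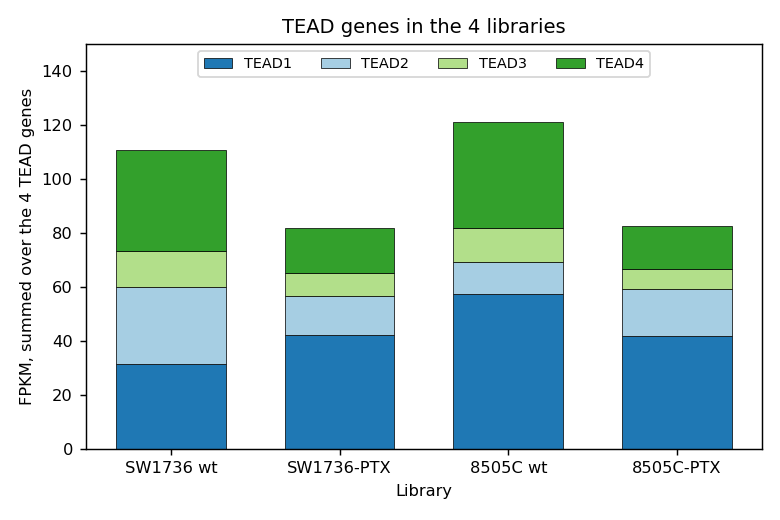
FPKM of TEAD1, TEAD2, TEAD3 and TEAD4 stacked for each library (y axis from 0; 1 library per bar, no error bar). The sum is 111 and 121 in the wt libraries and 81.7 and 82.6 in the PTX libraries, and the TEAD4 block is smaller in both PTX bars.

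LATS2 (chr13:20973036-21061583, minus strand) encodes a kinase that inhibits YAP and TAZ and is itself a YAP target. It was at 8.53 (SW1736) and 15.3 FPKM (8505C) in the wt libraries and at 10.1 and 6.68 FPKM in the PTX libraries. The lines moved to opposite sides, with a change of 0.24 (counting SE 0.04) in SW1736 and -1.18 (0.04) in 8505C, and SW1736-PTX was at -0.59 against 8505C wt. Its paralogue LATS1 was at 4.89 (SW1736) and 7.98 FPKM (8505C) in the wt libraries and at 5.28 and 8.98 FPKM in the PTX libraries.

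AMOTL2 (chr3:134355345-134375417, minus strand) encodes an angiomotin family protein that binds YAP and holds it in the cytoplasm, and is also a YAP target. It was at 46.9 (SW1736) and 76.9 FPKM (8505C) in the wt libraries and at 56.3 and 57.9 FPKM in the PTX libraries. As for TEAD1, the wt libraries were the lowest and the highest, and the changes were 0.27 and -0.41 (counting SE 0.02 in both lines). The PTX libraries differed by 0.04, with a counting SE of 0.02, and SW1736-PTX was at -0.45 against 8505C wt.

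ANKRD1 (chr10:90912100-90921275, minus strand) encodes an ankyrin repeat protein of muscle and stretched cells and is among the most responsive YAP targets. It was at 6.86 (SW1736) and 41.9 FPKM (8505C) in the wt libraries and at 96.1 and 152 FPKM in the PTX libraries. Both PTX libraries were above both wt libraries, and the wt lines themselves differed by 6.11-fold. The ratio of PTX to wt was 14.0 in SW1736 (log2 fold change 3.79, counting SE 0.06) and 3.62 in 8505C (1.85, counting SE 0.03). These changes were larger than those of 93.4% and 85.2% of the genes compared. Against 8505C wt in place of SW1736 wt, the ratio of SW1736-PTX was 2.29 (log2 fold change 1.20), which is not called, so the call in SW1736 rests on the low value of SW1736 wt.

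CYR61 (chr1:85580761-85583965, plus strand) encodes a secreted matricellular protein that binds integrins. It was at 306 (SW1736) and 377 FPKM (8505C) in the wt libraries and at 550.3 and 262 FPKM in the PTX libraries. The PTX libraries were the highest and the lowest of the 4. The change was 0.85 in SW1736 and -0.53 in 8505C (counting SE 0.01 in each), and 0.54 for SW1736-PTX against 8505C wt.

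CTGF (chr6:131948177-131951378, minus strand), of the same matricellular family, was at 266 (SW1736) and 504 FPKM (8505C) in the wt libraries and at 337 and 822 FPKM in the PTX libraries. Each PTX library was above the wt library of the same line, and both 8505C libraries were above both SW1736 libraries. The changes were 0.34 and 0.71, and against 8505C wt, SW1736-PTX was at -0.58. The ratio of CTGF to CYR61 within a library was 0.867 (SW1736) and 1.34 (8505C) for wt and 0.612 and 3.14 for PTX. Between the PTX libraries, CTGF was 2.44-fold higher and CYR61 2.10-fold lower in 8505C-PTX than in SW1736-PTX, and neither difference reached 1.5 on the log2 scale.

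AXL (chr19:41219199-41261767, plus strand) encodes a receptor tyrosine kinase of the TAM family, known for roles in invasion and drug tolerance of tumour cells. It was at 312 (SW1736) and 276 FPKM (8505C) in the wt libraries and at 189 and 190.2 FPKM in the PTX libraries. Both PTX libraries were below both wt libraries. The change was -0.72 in SW1736 and -0.54 in 8505C, -0.54 for SW1736-PTX against 8505C wt, and the PTX libraries differed by 0.01 (counting SE 0.01 for each of these values).

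**Figure D4:**
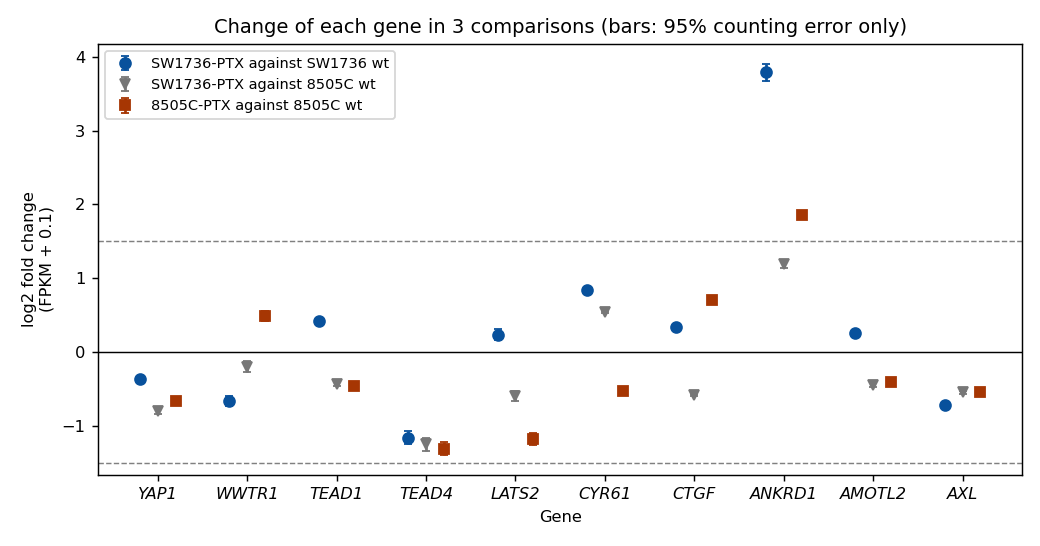
log2 fold change (y axis) of the 10 genes (x axis) for SW1736-PTX against SW1736 wt (circles), SW1736-PTX against 8505C wt (triangles) and 8505C-PTX against 8505C wt (squares), with bars for the 95% counting error and dashed lines at 1.5 and -1.5. ANKRD1 passes the upper line in both lines (3.79 and 1.85) and reaches 1.20 against 8505C wt, and TEAD4 lies between -1.16 and -1.31 in all 3 comparisons.

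By FPKM, CYR61, CTGF and AXL exceeded at least 97.7% of the genes above 0.5 FPKM in every library. LATS2 exceeded between 42.5% and 62.6% of them, and ANKRD1 from 40.5% in SW1736 wt to 97.2% in 8505C-PTX. Of the 10 genes, ANKRD1 and CTGF had positive values in both lines and YAP1, TEAD4 and AXL negative values in both, and the other 5 had opposite signs, 50.0% beside 29.7% of the 13304 genes compared in both lines. Set against 8505C wt, 8 of the 10 had negative values in SW1736-PTX, with a median of -0.50. Of the 13824 genes compared there, 6349 had negative values, with a median of 0.10 over all. For YAP1, TEAD1, TEAD4, LATS2 and AMOTL2, 8505C wt was the highest library, so their negative sign against it was fixed. None of the 10 was called, beside 15.1% of all genes called up and 5.23% called down (20.4% in all).

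The lines were also compared at the same condition. Between the wt libraries, ANKRD1 was the 1 gene of the 10 that was called (higher in 8505C wt). Beside it, 7.73% of all genes were called higher and 9.92% lower there (17.6% in all). In 8505C wt 8 of the 10 genes were higher, beside 6152 of the 13457 genes compared. Between the PTX libraries none was called, beside 3.7% of all genes called higher and 4.09% called lower in 8505C-PTX (7.79% in all), and the differences ran from -1.07 for CYR61 to 1.29 for CTGF.

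The genes of the cascade above YAP and TAZ were taken from a list of 22, of which 20 could be compared in each line. In SW1736, none was called up-regulated and 3 were called down-regulated, NF2, MAP4K4 and AMOT, and in 8505C WWC1 alone was called, down-regulated. Of all genes compared, 15.7% were called up and 10.2% down in SW1736, and 15% and 5.89% in 8505C. The median change of the list was -0.31 in SW1736 and -0.25 in 8505C. NF2, which encodes the tumour suppressor merlin that activates the cascade at the membrane, was at 53.1 (SW1736) and 6.28 FPKM (8505C) in the wt libraries and at 2.62 and 7.61 FPKM in the PTX libraries. SW1736 wt alone was high, and the change of -4.29 in SW1736 was -1.23 against 8505C wt, which is not called.

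MAP4K4, a kinase that can activate LATS in parallel to MST, was at 59.1, 17.5, 36.9 and 23.9 FPKM in SW1736 wt, SW1736-PTX, 8505C wt and 8505C-PTX. The change was -1.75 in SW1736, -0.63 in 8505C, and -1.07 for SW1736-PTX against 8505C wt. AMOT, the founding angiomotin, was at 6.34, 1.81, 0.923 and 0.344 FPKM and had changes of -1.75 and -1.20, and SW1736-PTX was above 8505C wt by 0.90. WWC1 (KIBRA), a scaffold that acts with merlin, was at 8.57 and 9.21 FPKM in wt and PTX of SW1736 and at 14.8 and 4.56 FPKM in those of 8505C, a change of -1.68 in 8505C, and was at -0.68 for SW1736-PTX against 8505C wt. The MST kinases (STK3 and STK4) and their partners were not called in either line, with STK4 at -0.55 and -0.49, SAV1 at -0.17 and -0.11, MOB1A at -0.71 and -0.51, MOB1B at 1.20 and 0.29, and STK3 at 0.97 and -0.52. None of the 20 was called in SW1736-PTX against 8505C wt, beside 20.4% of all genes.

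Of the VGLL proteins, which bind TEAD factors at the same surface as YAP, VGLL1 and VGLL2 stayed below 0.5 FPKM. VGLL3 was at 1.02 (SW1736) and 11.9 FPKM (8505C) in the wt libraries and at 22.9 and 18.2 FPKM in the PTX libraries, so that SW1736 wt stood below the other 3 libraries. The change was 4.37 in SW1736, which is called, 0.61 in 8505C, and 0.94 for SW1736-PTX against 8505C wt. VGLL4, which represses TEAD, had changes of 0.82 and 0.85 and was not called.

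A list of 16 other genes of a YAP/TAZ target signature gave 3 up-regulated and 1 down-regulated in SW1736 (16 compared) and 2 and 1 in 8505C (15 compared). Beside them, 15.7% of all genes were called up and 10.2% down in SW1736 (25.9% in all), and 15% and 5.89% in 8505C (20.9%). The median change of the list was 0.52 in SW1736, -0.36 in 8505C, and 0.50 for SW1736-PTX against 8505C wt. There 3 were up-regulated and 1 down-regulated, beside 15.1% and 5.23% of all genes. TGFB2, a ligand of the TGF-β receptors, was up-regulated in both lines, at 7.39 (SW1736) and 1.78 FPKM (8505C) in the wt libraries and at 34.4 and 20.3 FPKM in the PTX libraries. The change was 2.20 (counting SE 0.03) in SW1736 and 3.44 (0.07) in 8505C, and 4.2 against 8505C wt. Both PTX libraries were above both wt libraries.

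F3, which encodes tissue factor, the initiator of blood clotting, was down-regulated in both lines, at 105 (SW1736) and 141 FPKM (8505C) in the wt libraries and at 18.4 and 20.1 FPKM in the PTX libraries. The change was -2.50 (counting SE 0.03) in SW1736 and -2.80 (0.03) in 8505C, and -2.93 against 8505C wt. TGFB2 and F3 are thus targets of the same signature called in opposite directions. Both were also called against 8505C wt. That outcome was fixed, since 8505C wt was below SW1736 wt for TGFB2 and above it for F3.

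CRIM1, a transmembrane protein that binds BMPs, was at 81.1, 239, 167 and 217 FPKM in SW1736 wt, SW1736-PTX, 8505C wt and 8505C-PTX. It was called in SW1736 (1.56) and not in 8505C (0.38), and was at 0.52 against 8505C wt. CCDC80, a secreted matrix protein, was at 39.9, 74.9, 14.0 and 68.5 FPKM, called in 8505C (2.28) and not in SW1736 (0.91), and called in SW1736-PTX against 8505C wt (2.41). FOXF2, a forkhead transcription factor, was listed at 0 in both wt libraries and was at 0.885 FPKM in SW1736-PTX, which gave a call in SW1736, and at 0.0674 in 8505C-PTX.

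**Figure D5:**
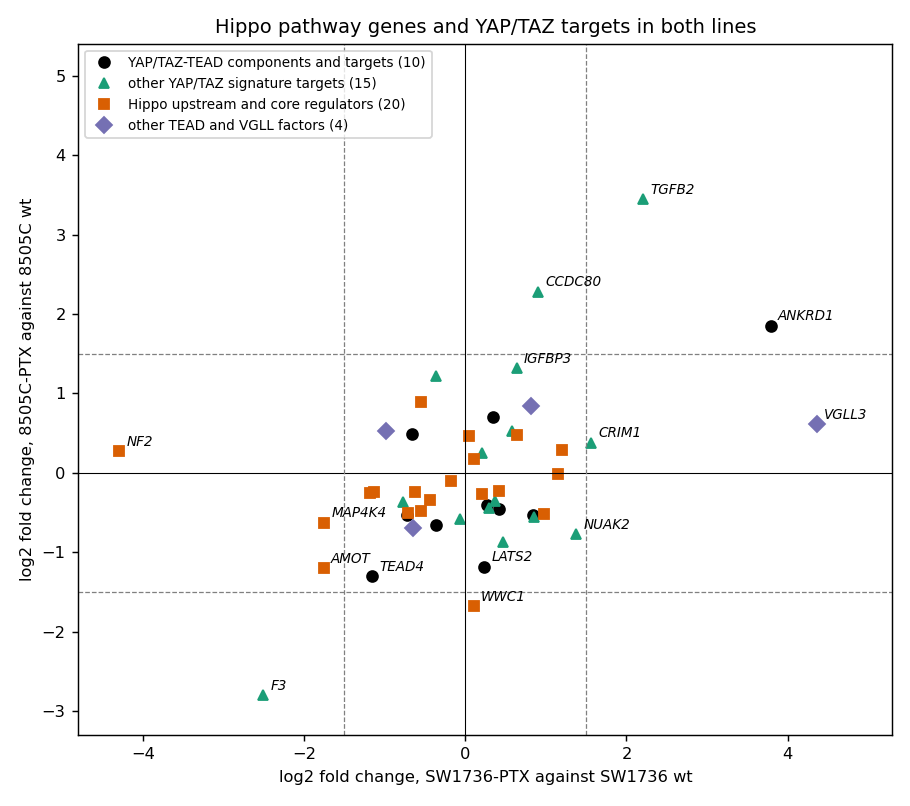
log2 fold change in SW1736 (x axis) against that in 8505C (y axis) for the 10 genes, 15 signature targets, 20 regulators and 4 TEAD and VGLL genes compared in both lines, with dashed lines at 1.5 and -1.5 (1 point per gene, no error shown). ANKRD1 and TGFB2 lie above both limits and F3 below both, whereas NF2 (-4.29) and VGLL3 (4.37) lie far out on the SW1736 axis alone.

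Genes within 1 Mb of the chosen genes were compared to see whether a gene moved with its surroundings. Around LATS2, 10 neighbours were compared in each line, with a median of -1.73 in SW1736 (6 called down-regulated) and -1.14 in 8505C (2 called down-regulated). The median was -1.23 for SW1736-PTX against 8505C wt. Beside these counts, 10.2% of all genes were called down-regulated in SW1736 and 5.89% in 8505C. SKA3, a component of the outer kinetochore, was called down-regulated in both lines (-2.95 and -3.76), as was XPO4, a nuclear transport receptor (-2.22 and -2.08). Around TEAD4, FOXM1, a cell cycle transcription factor, was called in both lines (-2.34 and -1.84), and the median of the neighbours was -0.74 in SW1736 (10 genes) and -0.40 in 8505C (8 genes), and -0.32 for SW1736-PTX against 8505C wt. The values of TEAD4 itself, -1.16 and -1.31, were lower than these medians.

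Around YAP1, 5 of 9 neighbours were called up-regulated in SW1736 and 3 of 11 in 8505C, with none down-regulated, while YAP1 itself had negative values. Against 8505C wt, 3 of 10 were called up-regulated and 2 down-regulated in SW1736-PTX. The shares of all genes called up and down were 15.7% and 10.2% in SW1736, 15% and 5.89% in 8505C, and 15.1% and 5.23% against 8505C wt. CEP126 was called in both lines (2.98 and 1.76), and so was TRPC6, a cation channel, with a change of 1.92 in 8505C and a value of 1.50 FPKM in SW1736-PTX against a listed 0 in SW1736 wt. Around ANKRD1, the median of 7 neighbours was -1.23 in SW1736 and 0.15 in 8505C, with 1 neighbour called up-regulated in each line, and -0.27 for SW1736-PTX against 8505C wt. PPP1R3C, a regulator of glycogen synthesis, was that gene in both lines (2.19 and 2.55), and HTR7, a serotonin receptor, was down-regulated in both (-1.99 and -2.45).

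Around AXL, 35 neighbours had a median of -0.16 in SW1736 and 0.53 in 8505C. For SW1736-PTX against 8505C wt it was 0.60, so the negative sign in SW1736 was not kept. Calls were 3 up and 4 down in SW1736, 11 up and 1 down in 8505C, and 10 up and 2 down against 8505C wt. AXL itself had negative values in each comparison. CYP2S1, a cytochrome P450, was called up-regulated in both lines (3.77 and 3.18). The microRNA gene MIR641, near AXL, and SLCO2A1, a prostaglandin transporter gene near AMOTL2, were also called up-regulated in both lines. Each was listed at 0 in SW1736 wt and below 0.5 FPKM in 8505C wt. MIR641 lies within the span of AKT2, which was not called (-0.73 in SW1736 and -0.19 in 8505C). Whether the reads of MIR641 come from AKT2 transcripts was not tested. TM4SF1-AS1 near WWTR1 was called up-regulated in both lines (6.75 and 2.41), from 0.0457 FPKM in SW1736 wt. No neighbour of TEAD1, CYR61 or CTGF was called in the same direction in both lines. Of the 11 neighbours called in both lines, MIR641 included, HTR7 (-0.34) alone was not called for SW1736-PTX against 8505C wt. The calls that selected these neighbours already used both of those libraries, so this count is no separate support. The share of all genes called in the same direction in both lines was not computed.

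Genes with a pattern over the 4 libraries closest to that of CYR61 and CTGF were found by the root mean square difference of centred log2(FPKM + 0.1) among 14692 expressed genes. For CYR61 these were MXRA7 (0.01), LINC00702 (0.04) and RBM24 (0.04), and for CTGF ZNF192P1 (0.04), TRAF3IP2-AS1 (0.04) and IL10RB (0.07). With 4 libraries such likeness is common, since 214 genes were within 0.25 of CYR61 and 72 within 0.25 of CTGF.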

How the data were processed

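RNA of 4 cultures (SW1736 wt, SW1736-PTX, 8505C wt and 8505C-PTX) was sequenced as single-end reads of 75 bp, with 1 library each. Per the methods and the submitters' processing notes, the authors used bcl2fastq 2.20, Cutadapt, ERNE, STAR (hg38) and StringTie; the annotation and the versions of ERNE, STAR and StringTie are not given in the sources used here. The authors deposited, per gene, FPKM (fragments per kilobase, scaled to library depth), TPM (the same scaled to an equal total) and coverage, a signal not normalized for depth. The deposited tables hold no counts, so no count model was used.

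Rows with the same name were summed, and changes were computed as described with a pseudocount of 0.1 FPKM; the limits of 0.5 FPKM and 1.5 are those of the study's methods. Reads per gene were estimated from FPKM, depth and the MANE transcript length in GENCODE release 44. The 10 genes and all lists were chosen with earlier results of these data known. The rule for named genes took the 10 genes, list genes called in at least 1 line, thyroid and other markers, the 3 nearest patterns to CYR61 and CTGF and called neighbours, which were narrowed to those called in the same direction in both lines after their values were seen; further list genes (LATS1, the MST kinases and partners, TEAD2, TEAD3 and the other VGLL genes) were also named then. Alternatives changed the pseudocount, filter, unit, centring, repeated rows, threshold and reference library. Protein sequences were not analysed here. Computations ran in Python 3.11.15 with pandas 2.3.3 and NumPy 2.4.6, and figures in matplotlib 3.10.9.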

Additional observations from a re-analysis of the deposited data

Results flagged for a closer look

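Between the lines, 5 of the 10 genes moved to opposite sides, a pattern given as values because, with 1 library per condition, the difference was not tested. The change in SW1736 minus that in 8505C, on the log2 scale, was -1.15 for WWTR1, 0.88 for TEAD1, 1.42 for LATS2, 1.37 for CYR61 and 0.67 for AMOTL2. With 8505C wt as the reference of both PTX libraries, the same differences were -0.69, 0.02, 0.59, 1.07 and -0.04, and TEAD1, LATS2 and AMOTL2 then had negative values in both. 8505C wt was the highest library for each of TEAD1, LATS2 and AMOTL2. With it as the shared reference, negative values in both were fixed and show no agreement between the lines. None of these 5 genes was called in either line.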

How the results depend on the processing

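No paired analysis was possible because each condition has 1 library and the labels give no replicate numbers. For the same reason no library could be left out within a group. Of the 10 genes, ANKRD1 alone was called in each line; with a limit of 1 on the log2 scale, 2 were called in SW1736 and 3 in 8505C (40.4% and 35.5% of all genes), and with a limit of 2 none (0) was called in 8505C (13.0% of all genes). With 8505C wt as the reference for SW1736-PTX, 0 were called and the median change of the 10 genes was -0.50 in place of 0.25, with TEAD1, LATS2, CTGF and AMOTL2 turning from positive to negative values. With TPM the median was 0.21 in SW1736 and -0.53 in 8505C, and centring on the median of all genes, which had shifted by 0.11 in 8505C, gave -0.60 there. The other alternatives kept these counts, and none of the alternatives run within a line changed the sign of any of the 10 genes. With 8505C wt as the reference, ANKRD1 (1.20), NF2 (-1.23), MAP4K4 (-1.07), VGLL3 (0.94), CRIM1 (0.52), NKX2-1 (0.25) and CD68 (0.12) lost their call in SW1736, CCDC80 (2.41) gained one, and AMOT (0.90) and FOXE1 (2.08) changed sign; PAX8 was under 0.5 FPKM in both libraries and was not compared. Under the alternatives within a line, of 356 values of the 10 genes and the 14 other list genes called in at least 1 line, 354 kept their side of the limit, and AMOT (-1.39) and FOXF2 (0.91) in SW1736 lost their call with a pseudocount of 1. A pseudocount of 1 left 1222 up-regulated and 841 down-regulated genes in SW1736, and 969 and 473 in 8505C. Requiring an FPKM above 0.5 in both libraries left 850 and 851 genes in SW1736, and 1018 and 591 in 8505C. Coverage per aligned gigabase, an alternative chosen after seeing the data, also left ANKRD1 as the 1 call in each line. Depth limits the low genes, such as FOXF2, more than the 10 genes, of which the lowest had about 601 reads in a library.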
